A study of Mus musculus with 10 samples.

Results

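Acute phase plasma proteins are made by hepatocytes and secreted into the blood, and their output changes within hours of infection or tissue injury. Cytokines, chiefly interleukin 6 and interleukin 1, reach the hepatocyte and act through the transcription factors STAT3, C/EBP and NF-kB, and glucocorticoids strengthen the response. Serum amyloid A and serum amyloid P are major acute phase reactants of the mouse, in which C-reactive protein responds little. A listed set of 10 of these genes is described here in livers of 4-week-old mice: Saa1, Saa2, Saa4, Apcs, Orm1, Hp, Hpx, Lcn2, Itih3 and Fgl1. The members came from a fixed list of symbols, which was chosen with earlier results of these data known. Their counts beside the shares of all genes are therefore a description. Each is represented by the transcript cluster (a group of array probes for one transcript region) with the highest mean among those annotated with that single symbol. Of the 10 genes, 9 had such a cluster, out of 22180 genes with one, and all 9 passed the filter on low levels that left 13308 genes tested. Saa1 had none, since its cluster is annotated with Saa1 and Saa2 together.

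The arrays measured liver RNA of male mice in 3 groups. In 3 livers a Rosa26-rtTA allele was combined with SOD2 shRNA 1, in 3 it was combined with SOD2 shRNA 2, and 4 came from littermates with Rosa26-rtTA alone, called rtTA livers here. The protein rtTA is a transcription factor that needs doxycycline, a short hairpin RNA (shRNA) degrades the messenger RNA it matches, and Sod2 encodes the mitochondrial superoxide dismutase. Pregnant dams were fed doxycycline (625 mg/kg of chow), which limited the knockdown to embryonic day 0 through 12.5, weeks before these livers were taken. At 4 weeks Sod2 had a log2 value of 10.39 ± 0.06 with shRNA 1, 10.35 ± 0.12 with shRNA 2 (SD, n = 3 each) and 10.38 ± 0.08 with rtTA alone (SD, n = 4), with every array between 10.24 and 10.49. All levels are deposited log2 values, so a difference of 1 is a doubling. Of the rtTA littermates, 3 came with the shRNA 2 mice and 1 with the shRNA 1 mice, but not which one, so hairpin and cohort cannot be told apart. The labels number the livers and do not call them separate animals. The p-values therefore rest on the variation among these samples, which may be technical.

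Hepatocyte markers were high, as the liver label implies. Their mean log2 level lay between 11.71 and 11.77 in shRNA 1 livers, between 11.69 and 11.74 in shRNA 2 livers and between 11.67 and 11.69 in rtTA livers, over 9 measured markers. None of these 9 passed the test described below in any of the 4 comparisons, and 0 had an unadjusted p under 0.05 in adapted against rtTA livers. In bulk liver RNA, fewer cells of a type and less RNA per cell cannot be told apart.

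The 9 measured genes tended to be high in the same livers and low in the same livers, also within a group. Among the rtTA livers, replicate 2 held the highest value for 8 of the 9 genes and replicate 4 the lowest value for 9 of 9. All 3 shRNA 1 livers stood low, while the shRNA 2 livers divided, with replicates 1 and 2 high and replicate 3 the lowest of its group for 6 of 9 genes. The mean z-score over the 9 genes, which sets each gene to its own mean and SD, was -0.79, -1.13 and -1.09 in shRNA 1 livers, 0.57, 0.80 and -0.40 in livers with shRNA 2, and 0.85, 1.33, 0.43 and -0.58 in rtTA livers. Every pair of genes was positively correlated over the 10 arrays, with r from 0.45 to 0.96 and a median of 0.82 over 36 pairs. With each value set against its group mean, r ran from 0.03 to 0.98 with a median of 0.74. These correlations describe 10 arrays that also share labelling and normalization.

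**Figure D1:**
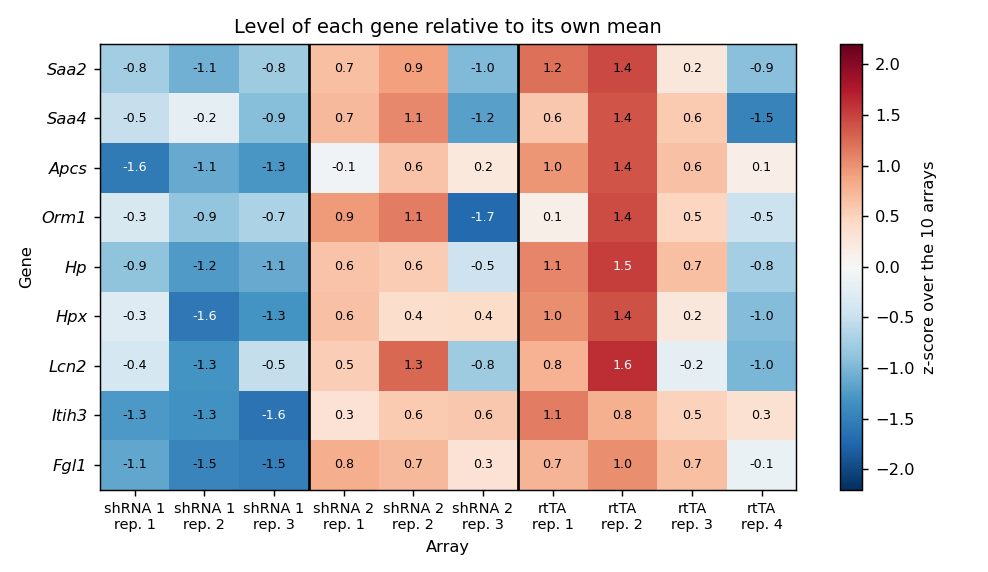
Each cell gives the z-score of 1 gene (rows) on 1 array (columns), relative to that gene's mean and SD over the 10 arrays; vertical lines separate shRNA 1, shRNA 2 and rtTA livers. The mean z-scores of the shRNA 1 columns, -0.79 to -1.13, are low throughout, while shRNA 2 replicate 3 (-0.40) and rtTA replicate 4 (-0.58) stand apart from the high arrays of their own groups.

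Differences between groups were tested with limma, a linear model fitted to all 13308 genes on all 10 arrays, with p-values adjusted by the Benjamini-Hochberg method over all of them and a threshold of 0.05. When the mean of both shRNA groups (the adapted livers, in the labels' term) was set against rtTA livers, all 9 genes had a lower mean, where 48% of all genes tested did, and their median difference was -0.31 against 0.006 over all genes. Of the 9 genes, 0 passed the adjusted threshold and 4 had an unadjusted p under 0.05, namely Apcs, Fgl1, Itih3 and Hp. Across all genes 0.00751% passed the adjusted threshold, and 3.51% were lower at an unadjusted p under 0.05. The median difference was -0.17 without rtTA replicate 2 and -0.44 without rtTA replicate 4. For 0 of the 9 genes did all 6 adapted livers lie below all 4 rtTA livers, which was so for 0.842% of all genes, and for 0 did they lie above them, which was so for 1.04%.

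The lower means were mostly those of the shRNA 1 livers. In shRNA 1 against rtTA livers the median difference was -0.48 and 9 of 9 genes had a lower mean, while in shRNA 2 against rtTA livers it was -0.03 with 6 lower and 3 higher. Of all genes tested 47.6% had a lower mean in shRNA 1 livers and 48.8% with shRNA 2. The 2 comparisons share the rtTA livers. Over all genes the medians were 0.009 for shRNA 1 and 0.004 for shRNA 2. In limma 0 of the 9 genes passed for either line, with 6 genes at an unadjusted p under 0.05 for shRNA 1 (3.32% of all genes were lower at that p) and 0 for shRNA 2 (3.46%). The shares of all genes passing the adjusted threshold were 0% for shRNA 1 and 0.00751% for shRNA 2. All 3 shRNA 1 livers lay below all 4 rtTA livers for 4 of the 9 genes (Apcs, Fgl1, Itih3 and Hp), against 3.82% of all genes tested, and the shRNA 2 livers did so for 0 of 9, against 3.41% of all genes. For 0 of the 9 genes did all livers of a line lie above all rtTA livers, where 5.07% of all genes did so for shRNA 1 and 3.88% for shRNA 2.

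**Figure D2:**
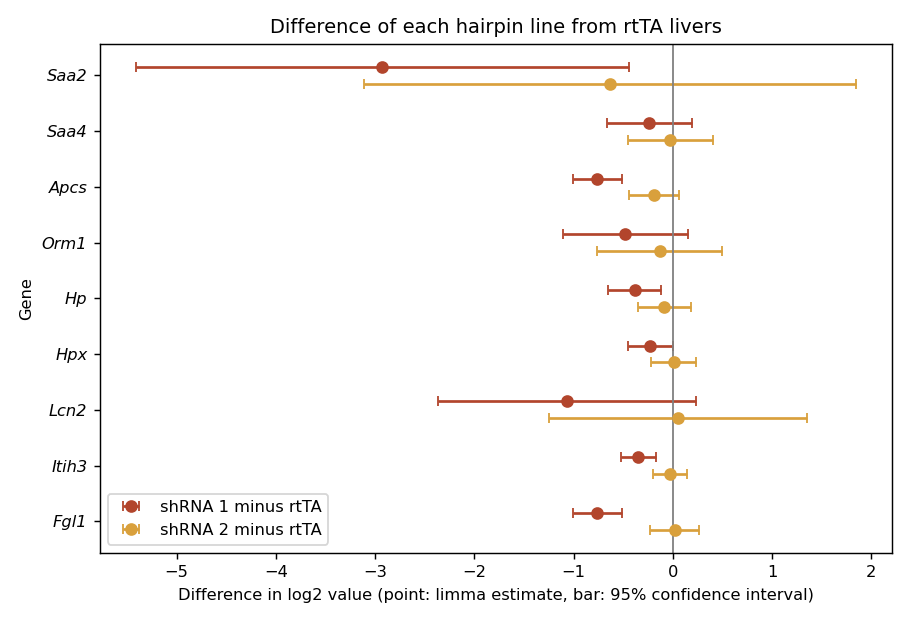
Points give the limma difference in log2 value and bars its 95% confidence interval for shRNA 1 minus rtTA and shRNA 2 minus rtTA, with 1 gene per row. For shRNA 1 the points lie left of 0 throughout, from -2.93 for Saa2 to -0.23 for Hpx, while for shRNA 2 they lie between -0.63 and 0.05 and every interval holds 0.

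Serum amyloid A had the widest range. These small apolipoproteins are carried on high-density lipoprotein. Saa1 and Saa2 are strongly induced in the acute phase, whereas Saa4 is made constitutively. In the gene table of assembly GRCm38.p6 the mouse family lies together on chromosome 7 in the order Saa3, Saa4, Saa1, Saa2. The 250 bases before the start sites of Saa1 and Saa2, from RefSeq's promoters in GRCm38.p6, were identical in 238 of 251 aligned columns (94.8%), whereas Saa1 and Saa4 shared 46.3%. They are printed 5′ to 3′ to show how alike the induced pair is, with capitals marking matches to a C/EBP motif (TTGCNNAA) and an NF-kB motif (GGG, any 5 bases, CC). The Saa1 window is chr7:46742981-46743230 on the minus strand and the Saa2 window chr7:46751583-46751832 on the plus strand.
Saa1: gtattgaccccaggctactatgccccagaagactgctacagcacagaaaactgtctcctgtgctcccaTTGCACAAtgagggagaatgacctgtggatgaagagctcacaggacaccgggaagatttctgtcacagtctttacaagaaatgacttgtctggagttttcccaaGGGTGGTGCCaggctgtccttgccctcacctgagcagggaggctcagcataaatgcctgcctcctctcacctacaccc
Saa2: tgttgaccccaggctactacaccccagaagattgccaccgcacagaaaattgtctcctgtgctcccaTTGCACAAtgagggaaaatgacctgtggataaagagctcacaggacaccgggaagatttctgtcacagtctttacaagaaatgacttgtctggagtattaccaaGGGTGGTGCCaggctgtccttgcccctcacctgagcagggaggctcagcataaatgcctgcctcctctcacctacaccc

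Both windows hold 1 match to each motif at nearly the same distance from the start. Of the 10 genes, 7 had a promoter in the table, all but Orm1, Hp and Fgl1. On either strand, the C/EBP motif was found in 5 of the 7 (Saa1, Saa2, Saa4, Hpx and Lcn2) and in 9.56% of all 32851 promoters, and the NF-kB motif in 4 of the 7 (Saa1, Saa2, Saa4 and Lcn2) and in 45.8% of all promoters. Saa1 and Saa2, whose windows are near copies with the same matches, are counted separately in both. A STAT3 motif (TTCNNNGAA) was found in Apcs alone and in 7.02% of all promoters. An HNF1 motif (GTTAAT, any 1 base, ATTAAC) and a TATAAA box were found in 0 of the 7, and in 0.00913% and 12.4% of all promoters. A match is a run of letters and not a shown binding site.

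Saa2 had log2 values of 7.51, 6.90 and 7.49 in shRNA 1 livers, 10.58, 11.12 and 7.09 in livers with shRNA 2, and 11.76, 12.27, 9.69 and 7.20 in rtTA livers. The shRNA 1 livers were all low, and in both other groups 1 liver, shRNA 2 replicate 3 and rtTA replicate 4, was as low as they were. The range over the 10 arrays was 5.36, or 41.2-fold, and the SD within groups was 1.92, the second highest of all 13308 genes. Group means were 7.30 ± 0.35 in shRNA 1 livers, 9.60 ± 2.19 in shRNA 2 livers (SD, n = 3 each) and 10.23 ± 2.31 in rtTA livers (SD, n = 4). The shRNA 1 difference from rtTA was -2.93 with a 95% confidence interval of -5.41 to -0.44 (limma adjusted p = 0.54), and the shRNA 2 difference was -0.63, with an interval of -3.11 to 1.85 (adjusted p = 0.931). Without shRNA 2 replicate 3 the shRNA 2 difference was 0.62. Because Saa1 and Saa2 are near-identical copies, this cluster may also have bound Saa1 RNA. The cluster annotated with both genes read 7.71, 7.43 and 7.85 in shRNA 1 livers, 10.40, 11.19 and 7.35 in livers with shRNA 2, and 11.84, 12.39, 10.09 and 7.31 in rtTA livers. Its values had a correlation of 0.997 with those of Saa2 over the 10 arrays, and it names neither gene by itself.

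Saa4 was at 12.09, 12.17 and 11.96 in shRNA 1 livers, 12.44, 12.54 and 11.88 in livers with shRNA 2, and 12.41, 12.64, 12.40 and 11.81 in rtTA livers. The groups overlapped, the low livers were again shRNA 2 replicate 3 and rtTA replicate 4, and the lowest value of all was that of the rtTA liver. The difference was -0.24 for shRNA 1 (95% confidence interval -0.66 to 0.19) and -0.03 for shRNA 2 (-0.45 to 0.40). For shRNA 1 it was -0.13 without rtTA replicate 2 and -0.41 without rtTA replicate 4. Saa3, the neighbouring gene of the family that macrophages and fat cells also express, read 6.78, 6.79 and 6.99 in shRNA 1 livers, 6.98, 6.82 and 6.08 in livers with shRNA 2, and 7.50, 7.50, 6.51 and 6.19 in rtTA livers. Its correlation with the mean z-score of the 9 genes was 0.52. Saa3, Crp, Orm2 and Itih4, all from the list of other acute phase proteins, are described as chromosomal neighbours of members, a choice made after their values were seen.

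Apcs encodes serum amyloid P, a pentraxin that binds amyloid fibrils and chromatin. It lies next to Crp, the C-reactive protein gene, on chromosome 1. The bases before its start, chr1:172895055-172895304 on the minus strand of GRCm38.p6 (RefSeq), are printed because it was the member with the smallest p for the adapted livers, and capitals mark the STAT3 motif.
Apcs: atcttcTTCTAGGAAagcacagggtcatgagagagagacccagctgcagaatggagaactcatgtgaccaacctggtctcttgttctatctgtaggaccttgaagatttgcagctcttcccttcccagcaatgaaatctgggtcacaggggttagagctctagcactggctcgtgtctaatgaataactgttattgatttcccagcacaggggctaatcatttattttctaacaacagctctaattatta

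Apcs was at 8.94, 9.10 and 9.03 in shRNA 1 livers, 9.47, 9.72 and 9.58 in livers with shRNA 2, and 9.85, 10, 9.73 and 9.55 in rtTA livers. All shRNA 1 livers lay below all others, by more than the range among themselves, whereas shRNA 2 and rtTA values overlapped. The shRNA 1 difference from rtTA was -0.76 with a standard error of 0.11 (9.02 ± 0.08, SD, n = 3, against 9.78 ± 0.19, SD, n = 4; limma adjusted p = 0.0525), a level 1.69-fold lower. For shRNA 2 it was -0.19, with a 95% confidence interval of -0.44 to 0.06 (adjusted p = 0.759). The adapted difference of -0.47 had an adjusted p of 0.264. Crp read 11.53, 11.62 and 11.57 in shRNA 1 livers, 11.59, 11.60 and 11.36 in livers with shRNA 2, and 11.38, 11.66, 11.55 and 11.50 in rtTA livers. That is a shRNA 1 difference of 0.05 (95% confidence interval -0.16 to 0.27), and the correlation of Crp with the mean z-score of the 9 genes was 0.10.

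Fgl1, a fibrinogen-like protein secreted by hepatocytes, was at 10.49, 10.36 and 10.35 in shRNA 1 livers, 11.25, 11.22 and 11.06 in livers with shRNA 2, and 11.23, 11.33, 11.19 and 10.88 in rtTA livers. The shRNA 1 livers were the lowest 3 of the 10, and rtTA replicate 4 was next above them. The shRNA 1 difference from rtTA was -0.76 with a standard error of 0.11 (10.40 ± 0.08, SD, n = 3, against 11.16 ± 0.20, SD, n = 4; limma adjusted p = 0.0525). For shRNA 2 it was 0.02, with a 95% confidence interval of -0.23 to 0.26 (adjusted p = 0.988). Set directly against shRNA 2 livers (11.18 ± 0.10, SD, n = 3), shRNA 1 livers were at -0.78 with an interval of -1.04 to -0.51 and an adjusted p of 0.0821 in limma. Apcs and Fgl1 passed in shRNA 1 against rtTA livers without rtTA replicate 4 (adjusted p = 0.0368 for both), and Fgl1 passed without shRNA 2 replicate 3 (adjusted p = 0.0487). Over all alternatives the adjusted p of this comparison ran from 0.015 to 0.243 for Apcs and from 0.015 to 0.264 for Fgl1.

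Itih3, a heavy chain of the inter-alpha-trypsin inhibitor that is linked to hyaluronan in the matrix, varied least of the 9 within groups. It was at 11.06, 11.05 and 11 in shRNA 1 livers, 11.32, 11.37 and 11.37 in livers with shRNA 2, and 11.46, 11.40, 11.35 and 11.33 in rtTA livers. Its SD within groups, 0.0434, was the 73rd lowest of 13308 genes, and the shRNA 1 livers stood apart from the other 7. Over all 10 arrays its SD was 0.165, against 0.153 for Hpx. Against rtTA the shRNA 1 difference was -0.35 with a standard error of 0.08 (limma adjusted p = 0.233) and the shRNA 2 difference -0.03 (95% confidence interval -0.20 to 0.14). With a prior variance that follows intensity and is estimated robustly, the shRNA 1 difference of Itih3 passed at an adjusted p of 0.0386. Itih4, which lies beside it on chromosome 14 and encodes a related protein, had values of 12.31, 12.28 and 12.35 in shRNA 1 livers, 12.49, 12.53 and 12.46 in livers with shRNA 2, and 12.53, 12.60, 12.41 and 12.40 in rtTA livers. Its shRNA 1 livers were also the lowest 3, at a difference of -0.18 from rtTA (adjusted p = 0.662). Of all genes tested, 3.82% had every shRNA 1 liver below every rtTA liver.

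**Figure D3:**
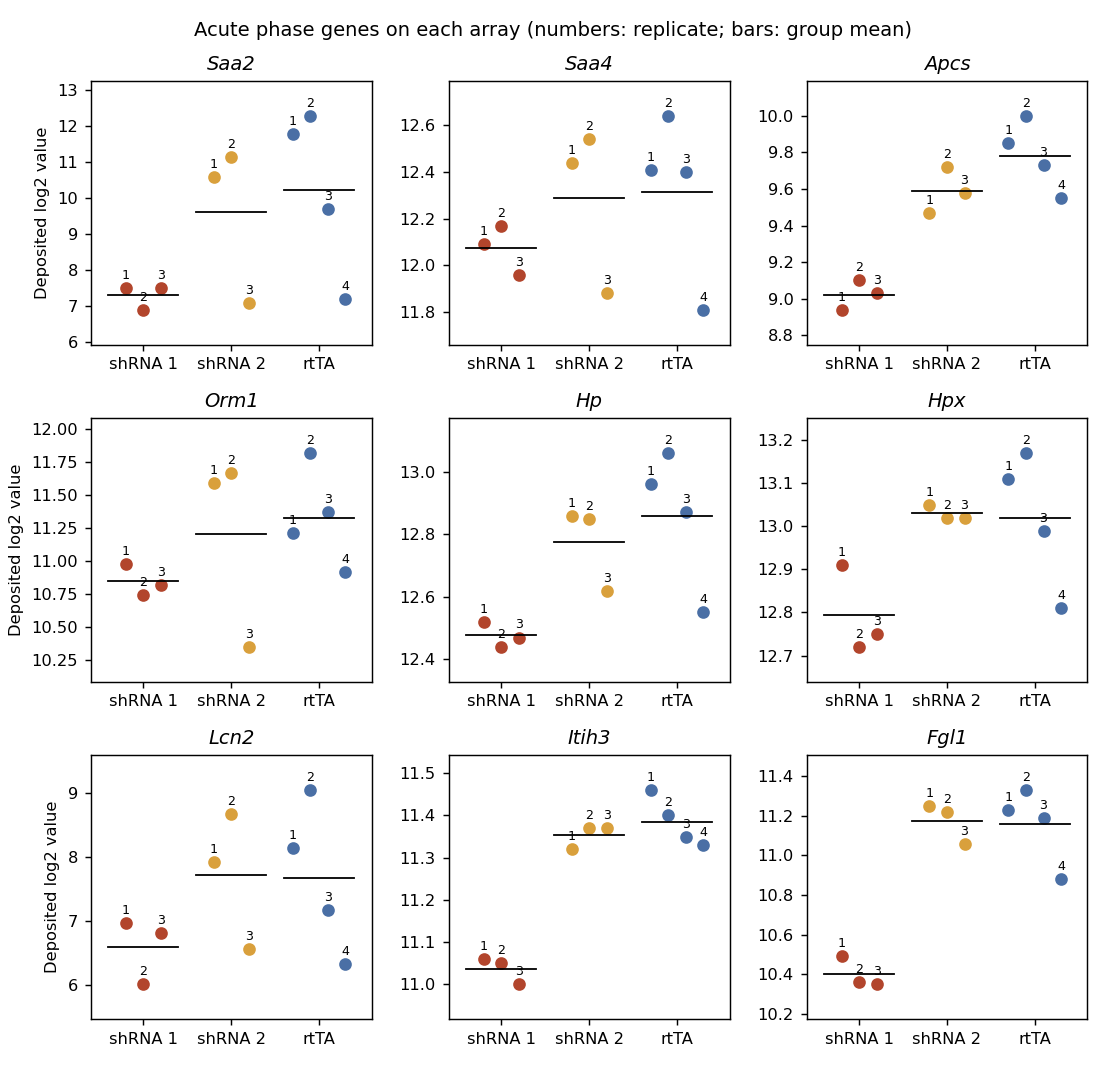
Each panel gives the deposited log2 values of 1 gene on the 10 arrays, with shRNA 1, shRNA 2 and rtTA livers from left to right, the replicate number above each point and a bar at the group mean. Axes differ between panels and do not start at 0. In Apcs, Fgl1, Itih3 and Hp the 3 shRNA 1 points lie below all rtTA points, and in Saa2 the values run from 6.90 to 12.27 with shRNA 2 replicate 3 and rtTA replicate 4 among the shRNA 1 points.

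The scavengers of haemoglobin and haem gave smaller shRNA 1 differences than Apcs and Fgl1. Hp, haptoglobin, which captures free haemoglobin, was at 12.52, 12.44 and 12.47 in shRNA 1 livers, 12.86, 12.85 and 12.62 in livers with shRNA 2, and 12.96, 13.06, 12.87 and 12.55 in rtTA livers. The shRNA 1 livers lay below the rest, with rtTA replicate 4 closest above them. The shRNA 1 difference was -0.38 with a 95% confidence interval of -0.65 to -0.12 (limma adjusted p = 0.446). Hpx, hemopexin, which binds free haem, was at 12.91, 12.72 and 12.75 in shRNA 1 livers, 13.05, 13.02 and 13.02 in livers with shRNA 2, and 13.11, 13.17, 12.99 and 12.81 in rtTA livers. Here shRNA 1 replicate 1 exceeded rtTA replicate 4, so the groups overlapped. Its shRNA 1 difference was -0.23 (adjusted p = 0.621) and its shRNA 2 difference 0.01 (95% confidence interval -0.22 to 0.23). Hp had a within-group correlation of 0.96 with Saa2 and of 0.98 with Fgl1 over the 10 arrays.

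Orm1, orosomucoid, a plasma protein that binds basic drugs, was at 10.98, 10.74 and 10.82 in shRNA 1 livers, 11.59, 11.67 and 10.35 in livers with shRNA 2, and 11.21, 11.82, 11.37 and 10.92 in rtTA livers. The lowest value was that of shRNA 2 replicate 3, and the groups overlapped. For shRNA 1 the difference was -0.48 (95% confidence interval -1.11 to 0.15) and the shRNA 2 difference -0.13 (-0.76 to 0.50), the second of which was 0.30 without shRNA 2 replicate 3. The SD within groups, 0.472, ranked 161st of all genes from the highest. Its neighbour Orm2 read 7.34, 6.90 and 7.17 in shRNA 1 livers, 8.14, 8.49 and 7.01 in livers with shRNA 2, and 8.0, 9.40, 7.63 and 6.80 in rtTA livers, with a correlation of 0.89 with the mean z-score of the 9 genes.

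Lcn2, lipocalin 2, which takes up bacterial siderophores and so withholds iron, was at 6.97, 6.02 and 6.82 in shRNA 1 livers, 7.93, 8.68 and 6.56 in livers with shRNA 2, and 8.15, 9.05, 7.17 and 6.34 in rtTA livers. As for Saa2, shRNA 2 replicate 3 and rtTA replicate 4 lay among the shRNA 1 livers. The range over the arrays was 8.19-fold and the SD within groups, 1.00, was the 13th highest of all genes. In shRNA 1 livers the difference from rtTA was -1.07 (95% confidence interval -2.37 to 0.23; limma adjusted p = 0.713) and the shRNA 2 difference 0.05 (-1.25 to 1.35). The shRNA 1 difference was -0.62 without rtTA replicate 2 and -1.52 without rtTA replicate 4. Lcn2 is also a product of neutrophils. Of 11 neutrophil markers measured, 10 lay under the level filter (log2 3.98), among them S100a8, S100a9, Ly6g, Mpo, Elane, Ltf and Camp, and the one tested, Cxcr2, had an adapted difference of 0.10 (adjusted p = 0.799). The mean level of the 11 markers was 3.37 to 3.42 in shRNA 1 livers, 3.33 to 3.52 in shRNA 2 livers and 3.32 to 3.47 in rtTA livers. That mean level had a correlation of 0.41 with the mean z-score of the 9 genes, and the part of neutrophils in the Lcn2 values was not tested.

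**Figure D4:**
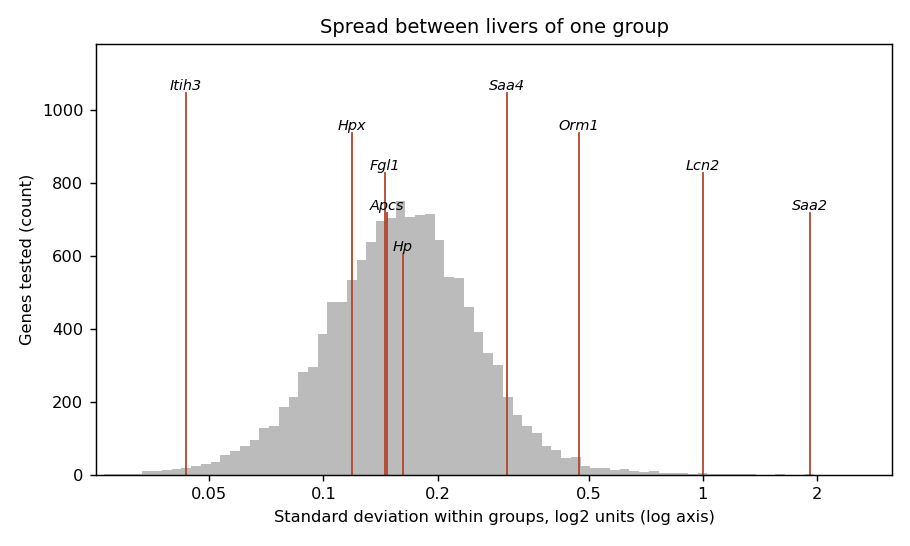
The histogram counts the 13308 genes tested by their SD within groups, on a log axis in log2 units, and red lines mark the 9 measured acute phase genes. Saa2 (1.92), Lcn2 (1.00) and Orm1 (0.472) lie in the upper tail, while Saa4 (0.304) is above most genes and Itih3 (0.0434) in the lower tail. Apcs (0.147), Fgl1 (0.145) and Hp (0.162) lie near the median gene, at 0.161, and Hpx (0.119) below it.

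Set directly against each other, shRNA 1 livers had lower means than shRNA 2 livers for 9 of 9 genes, with a median difference of -0.36 against 0.004 over all genes, where 48.9% of all genes had a lower mean. In limma 0 of the 9 passed and 4 had an unadjusted p under 0.05, while 0.015% of all genes passed and 2.7% were lower at an unadjusted p under 0.05. All shRNA 1 livers lay below all shRNA 2 livers for 5 of the 9 genes (Apcs, Fgl1, Itih3, Hp and Hpx), against 5.36% of all genes, and above them for 0 of 9, against 5.94%. The median difference was -0.57 without shRNA 2 replicate 3, and Fgl1 passed in this comparison without rtTA replicate 4 (adjusted p = 0.024).

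Other induced acute phase proteins were taken from a list of 22, of which 18 were tested. In limma 0 of the 18 passed in adapted against rtTA livers, 1 had an unadjusted p under 0.05, 13 had a lower mean and the median was -0.10. In shRNA 1 livers the median was -0.15, with 14 lower means and 6 genes at an unadjusted p under 0.05, and in shRNA 2 livers it was -0.04 with 11 lower means and 0 such genes. Over all genes the shares with a lower mean were 48% for adapted, 47.6% for shRNA 1 and 48.8% for shRNA 2 livers. Those lower at that p were 3.51%, 3.32% and 3.46%. The 4 with the largest moderated statistics were Steap4, a metalloreductase, at -0.38 in adapted livers (adjusted p = 0.514), Lrg1, a leucine-rich plasma glycoprotein, at -0.57 (adjusted p = 0.618), and the metallothioneins Mt1 and Mt2, which bind zinc, at -0.42 and -0.32 (adjusted p = 0.621 and 0.637). Lrg1 read 9.04, 8.70 and 9.06 in shRNA 1 livers, 10.11, 9.87 and 8.82 in livers with shRNA 2, and 9.82, 10.30, 10.19 and 9.03 in rtTA livers, so that shRNA 2 replicate 3 and rtTA replicate 4 were again the low livers of their groups. Mt1 did not share that order, since shRNA 2 replicate 3, at 10.54, was the highest shRNA 2 liver. Plasma proteins that fall in an acute phase gave 0 of 6 past the threshold and 0 at an unadjusted p under 0.05 in adapted against rtTA livers. Their median was 0.04 and 5 had higher means (52% of all genes). Among these Serpina6, the corticosteroid-binding globulin, was at 0.33 (adjusted p = 0.695), Ttr, the thyroxine and retinol carrier transthyretin, at 0.06, Rbp4, the retinol carrier, at 0.05 and Apoa1, the main protein of high-density lipoprotein, at -0.05.

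Some of the upstream cytokines were at the low end of the arrays. Of 10 acute phase cytokines, Il6, Tnf, Lif, Il11 and Il22 lay under the level filter, and 0 of the other 5 passed in limma. In adapted against rtTA livers 0 of them had an unadjusted p under 0.05. Il1b, which encodes interleukin 1 beta, read 4.08, 4.97 and 4.75 in shRNA 1 livers, 5.18, 5.0 and 5.46 in livers with shRNA 2, and 4.95, 4.66, 5.34 and 4.96 in rtTA livers, and Il1a had an adapted difference of 0.31 (limma adjusted p = 0.616). Ctf1 and Osm, cytokines of the interleukin 6 family, were at 0.15 and -0.07. Of 15 receptors and signal transducers 0 passed in adapted against rtTA livers and 1 was lower at an unadjusted p under 0.05 (3.51% of all genes). That was Lifr, the receptor of leukaemia inhibitory factor, which read 10.62, 10.72 and 10.39 in shRNA 1 livers, 10.94, 10.91 and 10.76 in livers with shRNA 2, and 11.02, 11, 11.02 and 11.23 in rtTA livers. All 6 adapted Lifr values lay below all rtTA values, at an adapted difference of -0.35 (adjusted p = 0.312). Such a separation was found for 0.842% of all genes tested. Il1r1, the interleukin 1 receptor, was at -0.35 (adjusted p = 0.668), Osmr, the oncostatin M receptor, at -0.17 and Tnfrsf1a, a receptor of tumour necrosis factor, at 0.17.

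Of 12 transcription factors tested, 0 passed in limma and 1 was lower at an unadjusted p under 0.05 in adapted against rtTA livers, with 10 lower means and a median of -0.07. In that comparison 48% of all genes tested had a lower mean and 3.51% were lower at that p. Hnf4a, a hepatocyte nuclear receptor, was at -0.18 (adjusted p = 0.583), the liver factor Onecut1 at -0.85 (adjusted p = 0.705), Foxa2 at -0.17 and Cebpa at -0.14. Onecut1 ranged from 6.53 to 9.57 among rtTA livers alone and had a correlation of 0.04 with the mean z-score. Among 10 feedback and early response genes 0 passed in the same comparison, 1 was lower at an unadjusted p under 0.05 and 5 had a lower mean. Socs3, a STAT3 target that shuts off the interleukin 6 receptor, was at 5.53, 5.63 and 5.55 in shRNA 1 livers, 5.54, 5.22 and 5.57 in livers with shRNA 2, and 5.92, 5.50, 6.17 and 5.35 in rtTA livers. It did not follow the order of Saa2, since rtTA replicate 2, the highest for Saa2, was not high for Socs3. Ptpn11, a tyrosine phosphatase, was at -0.18, Nfkbiz, an NF-kB cofactor, at -0.15 and Bcl3, another, at 0.21. Bcl3 had a correlation of -0.76 with the mean z-score.

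**Figure D5:**
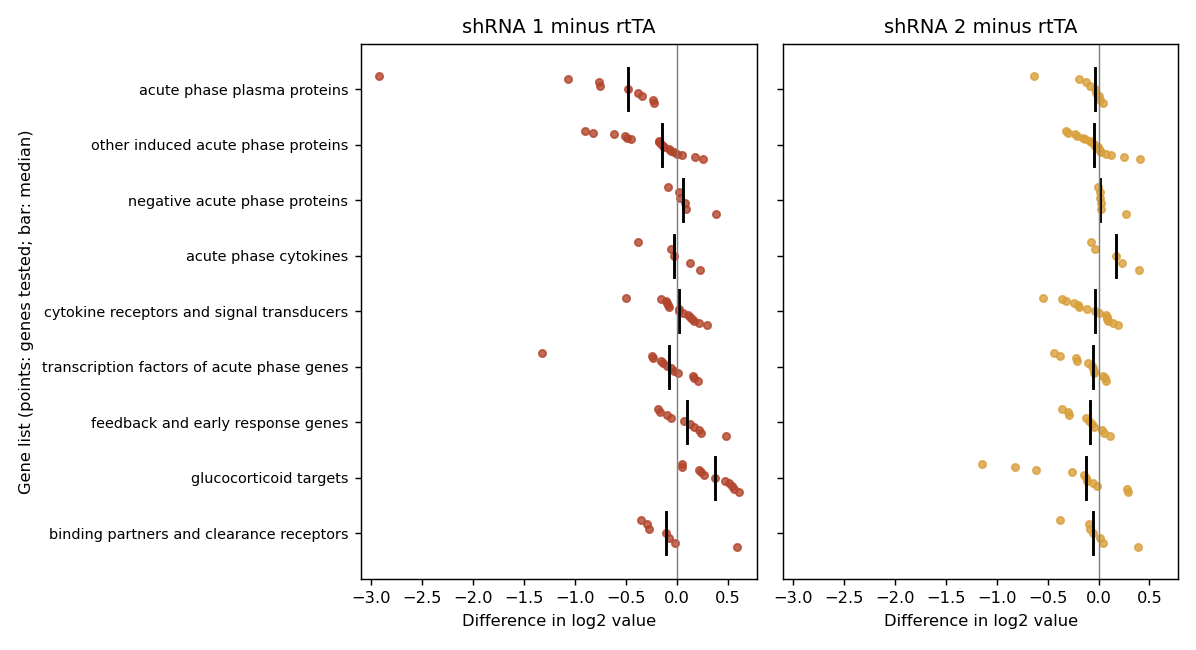
Points give the difference in log2 value from rtTA livers for each gene tested, in shRNA 1 livers (left) and shRNA 2 livers (right), by gene list, and black bars mark list medians. The median of the 9 acute phase plasma proteins is -0.48 for shRNA 1 and -0.03 for shRNA 2, and that of the glucocorticoid targets 0.37 and -0.13.

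Of 11 glucocorticoid targets, 1 passed between the hairpin lines and 0 against rtTA livers. Their median difference from rtTA was 0.37 in shRNA 1 livers, with 11 of 11 higher means (52.4% of all genes). In shRNA 2 livers it was -0.13, with 9 lower means (48.8% of all genes). In shRNA 1 against shRNA 2 livers all 11 had a higher mean, the median was 0.41, 7 had an unadjusted p under 0.05 and 1 passed. Of all genes tested, 51.1% had a higher mean in that comparison and 3.32% were higher at an unadjusted p under 0.05. The gene that passed was Dusp1, a phosphatase that inactivates MAP kinases, which was at 8.67, 8.37 and 8.43 in shRNA 1 livers, 7.57, 7.54 and 7.40 in livers with shRNA 2, and 8.10, 7.96, 8.04 and 8.37 in rtTA livers. Dusp1 was higher in shRNA 1 than in shRNA 2 livers by 0.99 with a standard error of 0.13 (limma adjusted p = 0.035). It no longer passed with 9 of the 10 arrays left out singly, all but rtTA replicate 4, nor with quantile normalization or with only the compared groups fitted. Over all alternatives its adjusted p ran from 0.00722 to 0.169, and without single arrays the difference ran from 0.90 to 1.05. Against rtTA livers Dusp1 passed in limma neither for shRNA 1 (0.37, adjusted p = 0.443) nor for shRNA 2 (-0.62, adjusted p = 0.407). Sgk1, a kinase, was at 0.43 in adapted livers (adjusted p = 0.264), Tat, tyrosine aminotransferase, at 0.26, the clock gene Per1 at 0.38 and the transcription factor Zbtb16 at -0.45. The mean level of the 11 targets had a correlation of -0.37 with the mean z-score of the acute phase genes over the 10 arrays, and their part in the acute phase values was not tested.

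Of 7 binding partners and clearance receptors tested, 0 passed in limma, and in adapted against rtTA livers 1 was higher and 1 lower at an unadjusted p under 0.05. Across all genes tested, 4.86% were higher and 3.51% lower at that p. Cd163, the macrophage receptor of haptoglobin bound to haemoglobin, was at 0.49 (adjusted p = 0.438), and Lrp1, the receptor of hemopexin bound to haem, at -0.20 (adjusted p = 0.618). Scarb1, a receptor of high-density lipoprotein, was at -0.13, and Lag3, a T cell receptor that binds Fgl1, at -0.37 (adjusted p = 0.433).

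Markers of other liver cells were measured beside these genes. Of 10 Kupffer cell and macrophage markers 0 passed, with a median adapted difference of 0.12, and their mean level was 8.07 to 8.27 in shRNA 1 livers, 8.14 to 8.44 in shRNA 2 livers and 8.04 to 8.27 in rtTA livers. Vsig4, a complement receptor of Kupffer cells, was at 0.24 (limma adjusted p = 0.464). None of the tested markers of the other cell types passed in a comparison of the 3 groups, with median adapted differences of 0.06 for 9 hepatocyte, 0.23 for 4 T and NK cell, 0.06 for 4 B cell, 0.07 for 8 sinusoidal endothelium, 0.01 for 8 stellate cell and -0.06 for 4 cholangiocyte markers, and of 0.02 for the 1 erythroid marker tested, Slc4a1. At an unadjusted p under 0.05 in adapted against rtTA livers there was 1 macrophage, 1 T and NK cell, 1 B cell, 1 endothelial, 1 stellate and 1 cholangiocyte marker and 0 of the hepatocyte, neutrophil and erythroid ones. The cholangiocyte marker was lower and the others were higher. Of all genes tested, 4.86% were higher and 3.51% lower at that p. The endothelial list had a correlation of -0.83 with the mean z-score of the acute phase genes, the cholangiocyte list one of 0.73 and the macrophage list one of 0.19. For the other lists it was -0.61 (hepatocyte), 0.41 (neutrophil), -0.5 (T and NK cell), 0.24 (B cell), -0.5 (stellate cell) and -0.13 (erythroid). The part of these cells in the acute phase values was not tested.

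Outside the list, the genes whose values over the 10 arrays were most like the mean z-score of the 9 genes were Meiob (Pearson r = 0.981), Pdia5 (0.948), Tor1b (0.941), Crybb3 (0.941) and Lbp (0.938). Lbp encodes the lipopolysaccharide-binding protein and is one of the 22 other induced acute phase proteins. It stood at 9.66 ± 0.20 in shRNA 1 livers, 10.03 ± 0.34 in shRNA 2 livers (SD, n = 3 each) and 10.16 ± 0.37 in rtTA livers (SD, n = 4). Meiob stayed within 4.59 to 5.28 and Pdia5 within 8.16 to 8.69, so their spans were far narrower than that of Saa2. Those of the members Itih3 and Hpx, 0.45 each, were narrower still. At the other end were Esf1 (r = -0.947), Ptprb (-0.934), Adat1 (-0.918), Ces1b (-0.906) and Acsl5 (-0.900). These are the extremes of all genes tested over 10 arrays and are given as a description.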

How the data were processed

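The file used holds log2 expression values per transcript cluster for 10 arrays; per the submitters' processing notes, the authors made these deposited log2 values with Affymetrix Expression Console. Background correction, normalization, software version and genome build: each is not given in the sources used here. Of 41345 clusters, 23521 had 1 gene symbol, 1814 several and 16010 none. Each of 22180 genes was represented by its cluster of highest mean, of which 13308 had a mean above the 40th percentile (log2 3.98) and were tested. No 2 arrays were identical. Groups came from the sample titles, and one limma fit (limma 3.58.1, R 4.3.3; two-sided) over all arrays gave every comparison. On simulated data with these genes' means and spread and 200 shifted genes, the adapted comparison recovered 59.4% of shifts of 0.5 and 95.8% of shifts of 1. These rates are averages over randomly chosen genes with independent noise, and far more genes were shifted than passed in the real data. They do not give the power for the acute phase genes. The genes described, and 17 pathway and cell marker lists (181 genes), were chosen with earlier results of these data known. By rule, all members and up to 4 genes per list with the largest moderated statistic in adapted against rtTA livers were named, with the 5 genes most and least like the members. Promoters are RefSeq's (GRCm38.p6). Arrays have no read depth, and their number limits the precision. Alternatives were quantile normalization, median centring, other level filters, the mean of a gene's clusters, weights per array, a robust prior that follows intensity, other fits, the replicate number as a block, and leaving out each array.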

Additional observations from a re-analysis of the deposited data

How the results depend on the processing

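No acute phase gene passed in adapted or in shRNA 2 against rtTA livers under any alternative run. In shRNA 1 against rtTA livers the count of 0 of 9 became 2 (Apcs and Fgl1) with the 60th percentile filter (adjusted p = 0.029 for both), the mean of a gene's clusters (0.0495 for both) and array weights (0.0233 and 0.018), and 3 with the robust intensity-following prior (the trend; 0.015, 0.015 and, for Itih3, 0.0386); leaving out single arrays it ran from 0 to 2. In shRNA 1 against shRNA 2 livers Fgl1 passed (1 of 9) with array weights (adjusted p = 0.0245) and with the trend (0.0204), and single arrays left out gave 0 to 1. Medians of the 9 genes with single arrays left out ran from -0.44 to -0.17 (adapted), -0.62 to -0.34 (shRNA 1), -0.19 to 0.08 (shRNA 2) and -0.57 to -0.31 (shRNA 1 minus shRNA 2). The cause of these changes was not tested, and the stricter filter both tested fewer genes and refitted the model. Apcs and Fgl1 had 1 single-symbol cluster each, so the mean of a gene's clusters left their own values and differences unchanged.

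Counts over all genes moved as well. The adapted count of 1 was 0 with the 60th percentile filter and with both lines as a single group, 6 with the trend, and 1 to 3 without single arrays (3 without rtTA replicate 1 and 2 without rtTA replicate 4). The shRNA 1 count of 0 was 1 with quantile normalization, 15 with the 60th percentile filter, 7 with the mean of clusters, 19 with array weights, 30 with the trend and 0 to 11 without single arrays (11 without shRNA 2 replicate 3 and 9 without rtTA replicate 4). The shRNA 2 count of 1 was 0 with the 60th percentile filter and 1 to 3 without single arrays. The shRNA 1 minus shRNA 2 count of 2 was 1 with quantile normalization and with the 60th percentile filter, 4 with median centring, 6 with array weights, 7 with the trend and 1 to 4 without single arrays.

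Same-numbered livers did not all deviate together (r from -0.25 to 0.267), so the numbers were not taken to pair samples; 5 of 9 arrays correlated best with their own number. With the replicate number as a block, members called stayed at 0 in each comparison, and the shRNA 1 minus shRNA 2 count over all genes was 4. Only the rtTA group has a replicate 4, so the block took that liver out of the differences. They equalled those without rtTA replicate 4, for example -2.79 for Saa2 in adapted against rtTA livers. Of 693 differences of single acute phase genes under the alternatives, 24 changed sign, all in shRNA 2 against rtTA livers. Most of these changes came from leaving out single arrays. The rest were Fgl1 at -0.08, Hpx at -0.06 and Lcn2 at -0.40 under the block, Itih3 at 0.00 and Saa4 at 0.01 with median centring, and Hpx at -0.01 with array weights. Without single arrays the shRNA 1 differences from rtTA ran from -1.52 to -0.62 for Lcn2, -0.62 to -0.32 for Orm1, -3.94 to -2.25 for Saa2 and -0.41 to -0.13 for Saa4. Leaving out single arrays, these shRNA 2 differences ran from -0.08 to 0.08 for Fgl1, -0.06 to 0.06 for Hpx, -0.43 to 0.63 for Lcn2, -0.36 to 0.30 for Orm1, -1.64 to 0.62 for Saa2 and -0.19 to 0.18 for Saa4.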
